A study of Mus musculus with 3 samples.

Results

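The dual-specificity phosphatases (DUSPs) and the Sprouty and Spred proteins are the brakes that cells build against their own mitogen-activated protein (MAP) kinases. Antigen and cytokine receptors on a T cell activate the Ras, Raf, MEK and ERK cascade and its JNK and p38 relatives, and many of the brake genes are themselves switched on by those kinases, so that the signal induces its own inhibitor. DUSPs of the MAP kinase phosphatase class remove the activating phosphates from the kinases, in the nucleus or the cytoplasm, whereas Sprouty and Spred proteins act further up, at Ras and Raf. In T cells the brakes are known for limiting how long the response to antigen lasts and how much cytokine is made.

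The 10 genes examined were chosen by symbol, from a list drawn up with earlier results of these data known. The list held the phosphatase genes Dusp1, Dusp2, Dusp4, Dusp5, Dusp6 and Dusp10 and the genes Spry1, Spry2, Spred1 and Spred2. All 10 were among the 18193 genes of the array with a probe set of a single symbol, and they were read by 23 of 34945 such probe sets. Of these 23, 12 were measured on all 3 arrays and 16 on at least 1, meaning that they read at or above a background level of 9.59, the 95th percentile of 141 probe sets of genes that T cells are not known to use, such as olfactory receptors.

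The samples were RNA of sorted mouse CD8+ T cells, with 1 Affymetrix array for each of 3 groups. The first was the NK1.1+ fraction, and the second the NK1.1- fraction, of CD8+ T cells sorted from Tgfbr2fl/fl x CD4-Cre mice aged 15 to 17 days (KO, called mutant here), whose T cells lose the type II receptor for transforming growth factor β (TGF-β). NK1.1 is a surface receptor of natural killer (NK) cells. The third was from Tgfbr2fl/wt x CD4-Cre littermates (control), so the control cells also carried the Cre transgene and 1 floxed allele. Cre driven by Cd4 is active in developing T cells, CD4 and CD8 lineages alike, so the mutation was not limited to the cells that were sorted. The labels call the control cells NK1.1- in one place and unfractionated CD8+ cells in another. How many mice stand behind an array is not stated. With 1 array per group no test was possible, and a difference was called where it reached 2-fold, or 1 on the log2 scale. As a yardstick for the probes, differences between probe sets of the same gene scattered with a pooled SD of 0.44 on the log2 scale for NK1.1- mutant against control, 0.85 for NK1.1+ mutant against control and 0.77 for NK1.1+ mutant against NK1.1- mutant. That SD holds no variation between mice.

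The arrays differed beyond the sort. The probe set shared by Klrb1b and the NK1.1 gene Klrb1c read 1618 in NK1.1+ mutant, 52.7 in NK1.1- mutant and 7.09 in control cells. The brightest Tgfbr2 probe set read 1808, 1271 and 2634 in the same order, and with the floxed exon not stated, this probe set does not test the deletion if it reads other exons. T cell markers were all measured on the 3 arrays, 7 of 7, with summed values of 6668 in NK1.1+ mutant, 11112 in NK1.1- mutant and 13484 in control cells. Of 14 monocyte and macrophage markers, 10 were measured in NK1.1+ mutant, 7 in NK1.1- mutant and 5 in control cells, and their summed values were 9456, 228 and 167, led by Csf1r at 7666, 54.5 and 30.5. Summed B and plasma cell markers read 2517, 217 and 428, most of the first from Jchain at 2282, and dendritic cell markers 1882, 446 and 553. The 3′ probe set of Actb read 81.9 times its 5′ probe set in the NK1.1+ mutant sample, 12.3 times in the NK1.1- mutant sample and 6.02 times in the control, whereas for Gapdh the ratio was 10.8, 26.7 and 17.8 and for 18S RNA 1.86, 4.09 and 4.12 in the same order. The part of any of these in the differences below was not tested, and in bulk samples fewer cells of a type and less RNA per cell cannot be told apart.

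Promoter sequences are shown for 3 genes on which the results turn: Dusp5 and Spry2, which were high on the NK1.1+ mutant array, and Dusp1, which was nearly level across the arrays. They are RefSeq sequences of assembly GRCm38.p6, 250 bases before the gene's start, read 5′ to 3′ on the gene's strand, and lie at chr19:53528895-53529144 (plus strand) for Dusp5, chr14:105896820-105897069 (minus strand) for Spry2 and chr17:26508473-26508722 (minus strand) for Dusp1. Capitals mark matches to 6 motifs of factors that MAP kinases or TGF-β act on. On both strands these were the cyclic AMP response element TGACGTCA, the AP-1 site TGANTCA, the SMAD site GTCTAGAC, the EGR site GCGTGGGCG, the ETS site CCGGAAG and the CArG box of serum response factor.
Dusp5: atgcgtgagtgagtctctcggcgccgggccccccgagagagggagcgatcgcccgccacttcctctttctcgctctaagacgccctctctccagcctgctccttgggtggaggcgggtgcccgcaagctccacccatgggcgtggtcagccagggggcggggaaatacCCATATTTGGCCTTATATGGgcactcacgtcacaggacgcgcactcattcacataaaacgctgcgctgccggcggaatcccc
Spry2: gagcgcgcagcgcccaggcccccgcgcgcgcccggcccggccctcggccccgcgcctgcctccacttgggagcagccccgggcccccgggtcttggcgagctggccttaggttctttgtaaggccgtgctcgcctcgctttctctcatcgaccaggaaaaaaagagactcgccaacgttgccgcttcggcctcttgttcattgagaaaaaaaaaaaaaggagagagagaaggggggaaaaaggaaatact
Dusp1: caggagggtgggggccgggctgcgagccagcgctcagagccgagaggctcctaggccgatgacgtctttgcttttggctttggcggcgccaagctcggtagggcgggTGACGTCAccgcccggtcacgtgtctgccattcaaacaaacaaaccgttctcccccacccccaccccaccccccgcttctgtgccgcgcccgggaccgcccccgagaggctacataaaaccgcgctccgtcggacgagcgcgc

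The Dusp5 window held a pair of abutting CArG boxes, CCATATTTGG and CCTTATATGG, 82 to 63 bases before the start. At least 1 CArG box was found in 1.40% of 27025 promoters of this length, and the share with a pair was not counted. The Dusp1 window held 1 cyclic AMP response element, 143 to 136 bases before the start, which 1.62% of promoters hold. The windows of Dusp2, Dusp6, Dusp10, Spry1, Spry2, Spred1 and Spred2 held none of the 6 motifs, of which AP-1 and ETS sites stood in 6.87% and 7.05%, and EGR and SMAD sites in 0.54% and 0.17%, of all promoters. A match describes letters of the window, not binding.

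Across the 3 arrays the brakes did not move as one. Spry2 and Dusp5 were called higher in NK1.1+ mutant cells than in either other group. Spry1, Dusp4, Dusp10 and Spred2 were called lower there than in either other group, Spred2 by its brightest probe set only. Dusp1, Dusp2 and Spred1 differed by less than 2-fold in every comparison, and Dusp6 was called in a single one, lower in NK1.1- mutant than in control cells. The plot of values by array shows these shapes.

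**Figure D1:**
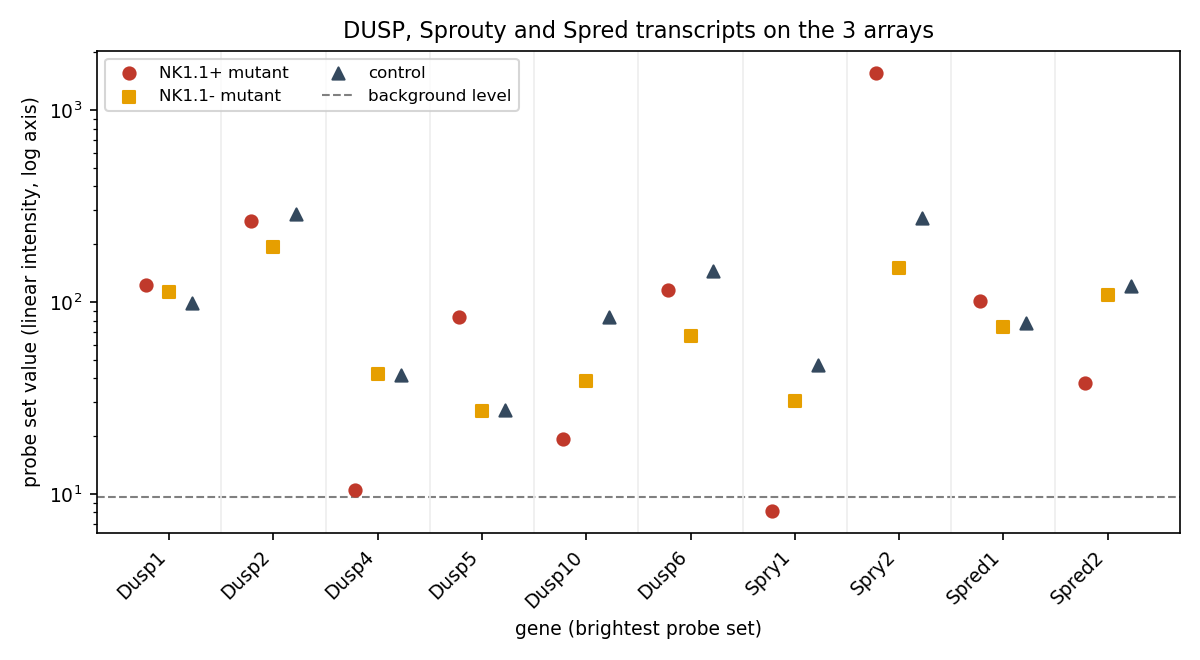
Value of the brightest probe set of each of the 10 genes (linear intensity on a log axis) on the NK1.1+ mutant, NK1.1- mutant and control arrays, with the background level of 9.59 as a dashed line. Spry2 at 1568 and Dusp5 at 83.9 in NK1.1+ mutant cells stand above the other arrays, while Dusp4, Dusp10, Spry1 and Spred2 are lowest there and Spry1 is under the line. Heights of different genes come from different probes and are not comparable.

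Among the nuclear phosphatases, which meet their kinases after these have entered the nucleus, Dusp1 is the classic early gene and acts on p38, JNK and ERK. Its probe set 1448830_at read 123 in NK1.1+ mutant, 113 in NK1.1- mutant and 98.7 in control cells. The 3 arrays lay within 1.25-fold of each other. Dusp2, also named PAC-1 and known from activated lymphocytes, acts on ERK and p38, and its probe set 1450698_at read 265, 194 and 286 in the same order. NK1.1- mutant cells were lowest, 1.47-fold below control (-0.56 on the log2 scale), short of a call.

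Dusp4, a nuclear phosphatase of ERK and JNK, was low and Dusp5, a nuclear phosphatase that is selective for ERK, was high in NK1.1+ mutant cells. The Dusp4 probe set 1428834_at read 10.5 in NK1.1+ mutant, 42.1 in NK1.1- mutant and 41.5 in control cells. The low array was that of the NK1.1+ mutant fraction, 3.96-fold below control (log2 difference -1.99) and 4.01-fold below NK1.1- mutant cells (-2.005). The NK1.1- mutant and control arrays differed by 0.02. The value of 10.5 lies near the background level, and the receptor probe sets that set that level had a 95th percentile of 14.5 on this array alone. The Dusp5 probe set 1437199_at read 83.9, 27.2 and 27.2 in the same order. NK1.1+ mutant cells were 3.09-fold above both control cells (1.63) and NK1.1- mutant cells (1.63), a difference reached in the same direction by 546 of 10661 measured genes (5.12%) against control and by 360 of 10653 (3.38%) against NK1.1- mutant. The calls of Dusp4 ended when 32 was added to each value (-0.79 and -0.80), and so did those of Dusp5 (0.97 and 0.97). With the level at the 75th percentile of values the Dusp5 differences were 0.64 and 0.64, and Dusp4 was below that level on all arrays.

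Dusp10, also named MKP-5, takes the phosphates off JNK and p38 rather than ERK, and was the one gene that was called in all 3 comparisons. Its probe set 1417164_at read 19.3 in NK1.1+ mutant, 39.0 in NK1.1- mutant and 83.5 in control cells, an ordered series in which each array lay about 2-fold from its neighbour. The log2 differences were -2.12 for NK1.1+ mutant against control, -1.10 for NK1.1- mutant against control and -1.02 for NK1.1+ mutant against NK1.1- mutant. In the same order, 5.30%, 4.37% and 20.8% of measured genes lay at least as far in that direction. The comparisons with control share the control array and are not separate evidence. The second Dusp10 probe set, 1417163_at, read 6.18, 6.999 and 7.31, below the level on all arrays. The difference between the mutant fractions was under 2-fold in several alternatives, among them quantile normalization (-0.89). That of NK1.1- mutant against control was also under 2-fold in some, for example with the mean of both probe sets (-0.58). That of NK1.1+ mutant against control was under 2-fold with the level at the 75th percentile of values (-0.63).

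Dusp6, the cytoplasmic phosphatase that is selective for ERK, was the gene most below control in NK1.1- mutant cells. Its probe set 1415834_at read 115 in NK1.1+ mutant, 66.6 in NK1.1- mutant and 145 in control cells. NK1.1- mutant cells lay 2.18-fold below control (-1.13, 2.57 times the pooled SD between probe sets), a difference that 422 of 10081 measured genes (4.19%) reached. NK1.1+ mutant cells lay between the other arrays, 1.26-fold below control (-0.33) and 1.73-fold above NK1.1- mutant cells (0.79). The second of these values crossed the 2-fold line when arrays were shifted to a common median (1.07) or quantile normalized (1.09). The call against control in NK1.1- mutant cells ended with 32 added to each value (-0.85).

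Sprouty proteins are induced by growth factor and antigen receptor signals and block the path to Raf and ERK, and the 2 measured family members went apart. Spry1 was read by 1 probe set, 1415874_at, at 8.15 in NK1.1+ mutant, 30.5 in NK1.1- mutant and 47.0 in control cells. It was below the background level in NK1.1+ mutant cells, and so at least 4.90-fold below control (log2 difference -2.29 or lower) and at least 3.18-fold below NK1.1- mutant cells (-1.67 or lower). At the level of 14.5 that the receptor probe sets gave on this array alone, the bounds were -1.70 and -1.08 on the log2 scale. NK1.1- mutant cells were 1.54-fold below control (-0.63), short of a call. With 32 added to each value the differences of the NK1.1+ mutant array were -0.98 against control and -0.64 against NK1.1- mutant. With the level at the 75th percentile of values Spry1 was below it on all arrays.

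Spry2 was the brake farthest above the other arrays in NK1.1+ mutant cells. Its probe set 1436584_at read 1568 in NK1.1+ mutant, 150 in NK1.1- mutant and 274 in control cells. NK1.1+ mutant cells were 5.72-fold above control (2.52) and 10.4-fold above NK1.1- mutant cells (3.39), which 89 of 10653 measured genes (0.84%) reached. NK1.1- mutant cells stood on the other side of control, 1.83-fold lower (-0.87, 1.98 times the pooled SD between probe sets), short of a call. The second Spry2 probe set, 1421656_at, read 6.10, 6.04 and 6.48, below the level on all arrays, so the difference rests on 1 probe set. With the mean of both probe sets it was 1.21 against control and 1.70 against NK1.1- mutant. Across all alternatives tried both Spry2 differences of NK1.1+ mutant cells stayed at 2-fold or more. Monocyte and macrophage markers, whose sum was 9456 on this array against 228 and 167 on the others, were also highest here. So were the sums of NK cell markers (3201, against 2424 in NK1.1- mutant and 658 in control cells), B and plasma cell markers (2517, 217 and 428) and dendritic cell markers (1882, 446 and 553). Most of that B and plasma cell sum came from Jchain. Of 7 measured genes of the B and plasma cell list, 1 was called higher and 1 lower than control (median -0.65). Against NK1.1- mutant cells 1 of 6 was higher and 0 lower (median 0.29). In NK1.1- mutant cells, where Spry2 was below control, the monocyte and NK cell sums were above control and the B cell and dendritic sums below it. Their part in the Spry2 signal was not tested.

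**Figure D2:**
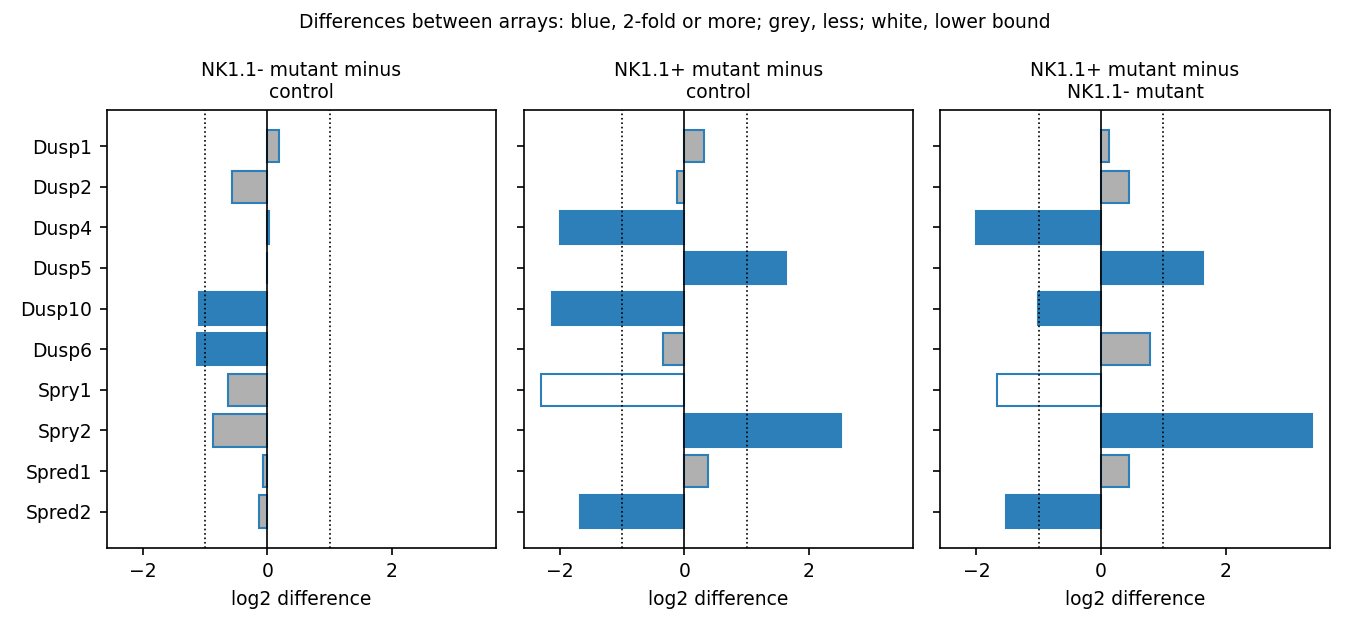
Log2 difference of each of the 10 genes (rows) in the 3 comparisons (panels), first-named array minus second, from brightest probe sets raised to the background level. Blue bars reach 2-fold (dotted lines), grey bars do not, and the white bars of Spry1 are lower bounds. Bars in the NK1.1- mutant panel run from -1.13 to 0.19, and those of NK1.1+ mutant against NK1.1- mutant from -2.005 to 3.39.

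Spred proteins bring neurofibromin, which switches Ras off, to the membrane. Spred1 had 8 probe sets, of which 4 were measured on at least 1 array. The brightest, 1423160_at, read 101 in NK1.1+ mutant, 73.7 in NK1.1- mutant and 77.5 in control cells. Those arrays lay within 1.36-fold of each other. The others read at most 15.5, and all measured Spred1 probe sets differed by less than 2-fold in all comparisons (at most 1.59-fold).

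Spred2 had 5 probe sets, 4 of them measured, and they disagreed on NK1.1+ mutant cells. The brightest, 1434403_at, read 38.04 in NK1.1+ mutant, 109 in NK1.1- mutant and 121 in control cells, 3.17-fold below control (-1.66) and 2.87-fold below NK1.1- mutant cells (-1.52). Probe set 1441802_at read 90.7, 20.6 and 20.2 in the same order, 4.49-fold above control (2.17) and 4.39-fold above NK1.1- mutant cells (2.14). So one probe set was called lower and another higher on the same array. Probe set 1441415_at read 21.7, 17.8 and 14.9, and 1436892_at read 11.6 in NK1.1+ mutant cells and was below the level on the other arrays. With the mean of all Spred2 probe sets the difference changed sign (0.32 against control and 0.29 against NK1.1- mutant). No direction can be given for Spred2 in NK1.1+ mutant cells. The NK1.1- mutant and control arrays differed by at most 0.26 on the log2 scale by every probe set measured on them. The transcripts read by each probe set are not stated in the labels or the annotation.

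**Figure D3:**
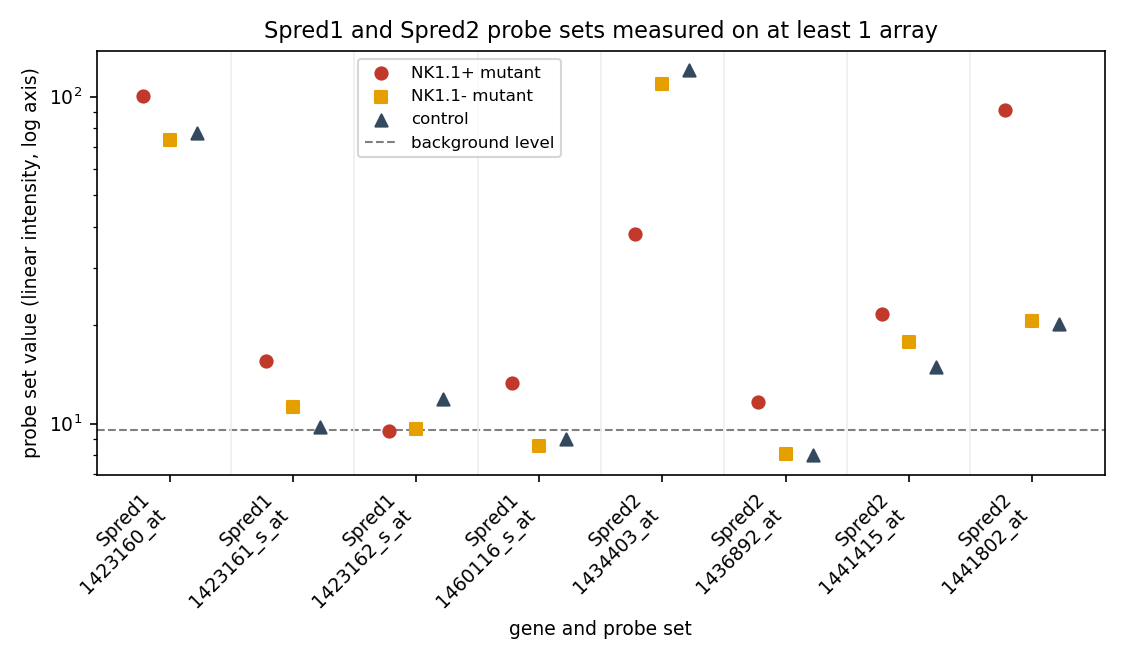
Values (linear intensity, log axis) of the 4 Spred1 and 4 Spred2 probe sets measured on at least 1 array, for NK1.1+ mutant, NK1.1- mutant and control, with the background level dashed. The Spred2 probe sets 1434403_at (38.04, 109 and 121) and 1441802_at (90.7, 20.6 and 20.2) run in opposite directions, while the NK1.1- mutant and control points lie close together for each.

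Set against the whole array, each count of called brakes lay within 2 genes of what the share of all genes called gives for 10 genes. In NK1.1- mutant against control, 2 of 10 genes were called lower, where 5.55% of 10081 measured genes were, and 0 were called higher, where 8.03% were. Of the 10 differences, 8 were below 0, as were 48.2% of all genes, and the median was -0.35 against 0.01 for all genes. In NK1.1+ mutant against control, 4 of 10 were called lower (22.8% of 10661 genes) and 2 higher (9.84%), with a median of -0.22 against -0.17. Among the 4 lower genes in each comparison of the NK1.1+ mutant array was Spred2, whose direction is not settled. In NK1.1+ mutant against NK1.1- mutant, 4 were called lower (21.2% of 10653 genes) and 2 higher (6.52%), with a median of 0.29 against -0.24. Over genes measured on all arrays, the median log2 difference from control was -0.27 for NK1.1+ mutant and 0.01 for NK1.1- mutant, while the median over all probe sets was 8.99 on the NK1.1+ mutant, 8.24 on the NK1.1- mutant and 8.18 on the control array. With the arrays shifted to a common median, 3 brakes were higher and 3 lower between the mutant fractions, while against control the 2 higher and 4 lower stood.

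**Figure D4:**
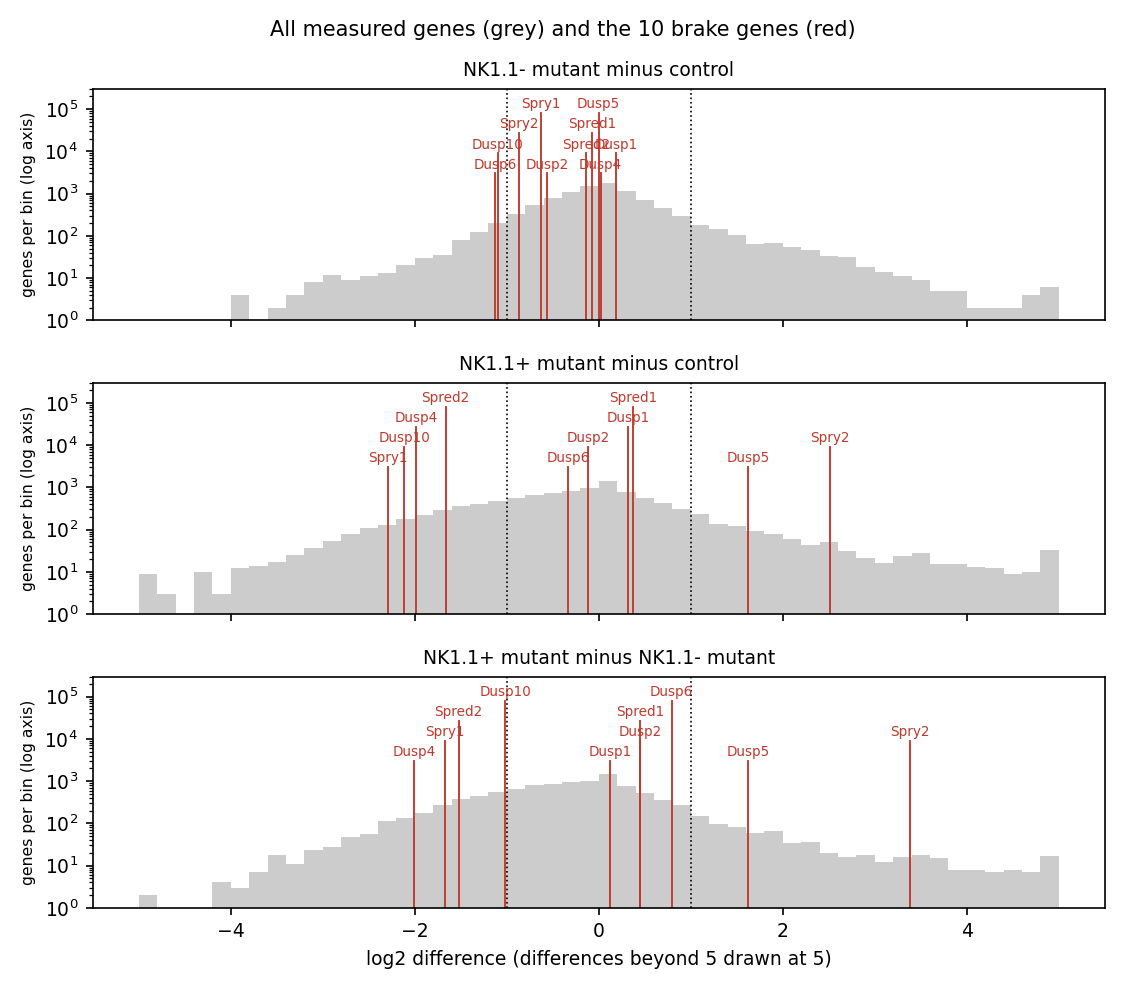
Number of measured genes per bin of log2 difference (grey, log axis) in the 3 comparisons, with a red line for each of the 10 genes and dotted lines at 2-fold. In NK1.1- mutant against control all lines lie between -1.13 and 0.19, and in both panels of the NK1.1+ mutant array they spread to both sides, with Spry2 at 2.52 and 3.39 farthest to the right.

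A list labelled other MAP kinase phosphatases held genes that are not all of that class. Of its 14 genes on the array, 8 were measured on the NK1.1+ mutant array. There 2 were called higher than control and 0 lower, against 9.84% and 22.8% of all measured genes. In NK1.1- mutant against control, 6 were measured on at least 1 of the 2 arrays and 4 on the NK1.1- mutant array. Of the 6, 1 was lower and 0 higher, against 5.55% and 8.03% of all. Dusp16, also named MKP-7 and known as a JNK phosphatase, read 353 in NK1.1+ mutant, 42.7 in NK1.1- mutant and 59.6 in control cells. This was 5.92-fold above control (2.57) and 8.27-fold above NK1.1- mutant cells (3.05), a pattern of high and low arrays like that of Spry2, and its second probe set read 26.7 and 10.2 in the mutant fractions and was below the level in control cells. Dusp3 read 34.05 in NK1.1+ mutant cells and was below the level on the other arrays, at least 3.55-fold higher (1.83). Dusp7, a cytoplasmic ERK phosphatase like Dusp6, read 14.2 in NK1.1+ mutant, 9.26 in NK1.1- mutant and 26.8 in control cells, at least 2.80-fold below control in NK1.1- mutant cells (-1.48). Spry3, Spry4 and Spred3 were measured on no array.

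The counts of pathway genes that follow are to be read against the shares of all measured genes, which for NK1.1- mutant against control were 8.03% higher and 5.55% lower and for NK1.1+ mutant against control 9.84% and 22.8%. Of 10 measured genes of the Ras, Raf, MEK and ERK list, 1 was called higher and 0 lower in NK1.1- mutant cells against control (median 0.07), and 0 higher and 3 lower in NK1.1+ mutant cells (median -0.15). The scaffold gene Ksr1, which holds Raf, MEK and ERK together, read 17.2 in NK1.1+ mutant, 59.9 in NK1.1- mutant and 19.6 in control cells. It was 3.05-fold above control in NK1.1- mutant cells (1.61). Map2k5, the kinase above ERK5, read 31.3, 205 and 209, 6.68-fold below control in NK1.1+ mutant cells (-2.74).

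Of 19 measured genes of the JNK and p38 cascades, on which Dusp10 and Dusp16 act, 1 was called higher and 0 lower in NK1.1- mutant cells against control (median 0.22), and 3 higher and 4 lower in NK1.1+ mutant cells (median -0.26), where 9.84% of all genes were higher and 22.8% lower. Mapk11, encoding p38β, read 14.9 in NK1.1+ mutant, 74.1 in NK1.1- mutant and 85.8 in control cells (-2.52 for NK1.1+ mutant against control). Mapk8, encoding JNK1, read 31.1, 82.0 and 118 (-1.92). Both were thus low on the array on which Dusp10 was low and Dusp16 high. The kinase gene Mapkapk2 was also called lower in NK1.1+ mutant cells than in control cells, at 25.3, 76.1 and 70.9. The kinase genes Map3k3, at 495, 227 and 187, and Map3k5, at 851, 761 and 397, were called higher there than in control cells. Some kinase genes of the list were not called, such as Mapk14 at 503, 640 and 689 (-0.45) and Mapk9 at 308, 473 and 367 (-0.26). Gadd45b, a stress gene that binds kinases of this cascade, was the gene called higher in NK1.1- mutant cells, with 87.4, 99.7 and 42.2 (1.24 for NK1.1- mutant and 1.05 for NK1.1+ mutant against control).

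Of 13 measured genes listed under Ras activation below the T cell receptor, 1 was called higher and 1 lower in NK1.1- mutant cells against control. In NK1.1+ mutant cells 3 were called higher and 4 lower. The list also holds adaptors, such as Gab2, that are not limited to that receptor. Rasgrp1, the exchange factor that loads Ras after antigen, read 366 in NK1.1+ mutant, 609 in NK1.1- mutant and 1436 in control cells. NK1.1+ mutant cells were 3.92-fold (-1.97) and NK1.1- mutant cells 2.36-fold (-1.24) below control. The arrays stood in the order seen for Dusp10. Gab2, an adaptor of cytokine and growth factor receptors, read 698, 132 and 6.53, at least 72.8-fold above control in NK1.1+ mutant cells (6.19) and at least 13.8-fold in NK1.1- mutant cells (3.78). Among 12 other brakes on Ras, 2 were called lower and 0 higher in each mutant fraction against control, where 22.8% of all genes were lower in NK1.1+ and 5.55% in NK1.1- mutant cells. They were Dgka, whose product consumes the diacylglycerol that recruits Rasgrp1, at 629, 1591 and 4388 (-2.80 and -1.46), and Rasal3, which switches Ras off, at 118, 303 and 633 (-2.43 and -1.06).

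Early genes known to be induced through MAP kinases, as many of the brake genes are, were measured for 19. In NK1.1- mutant cells against control 1 was called higher and 3 lower (median -0.40). In NK1.1+ mutant cells 2 were called higher and 5 lower (median -0.24). Nr4a1, an orphan nuclear receptor gene induced by antigen, read 134 in NK1.1+ mutant, 60.8 in NK1.1- mutant and 213 in control cells, with NK1.1- mutant cells lowest (-1.81 against control), the order seen for Dusp6 and Dusp2. Myc read 13.9, 45.9 and 120 (-3.12 in NK1.1+ mutant and -1.39 in NK1.1- mutant cells). Fosl2, an AP-1 subunit gene, read 306, 124 and 66.9, 4.58-fold above control in NK1.1+ mutant cells (2.19). Ier5 read 190, 547 and 802 (-2.08 in NK1.1+ mutant cells). The early genes, like the brakes, thus lay on both sides of control in NK1.1+ mutant cells.

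**Figure D5:**
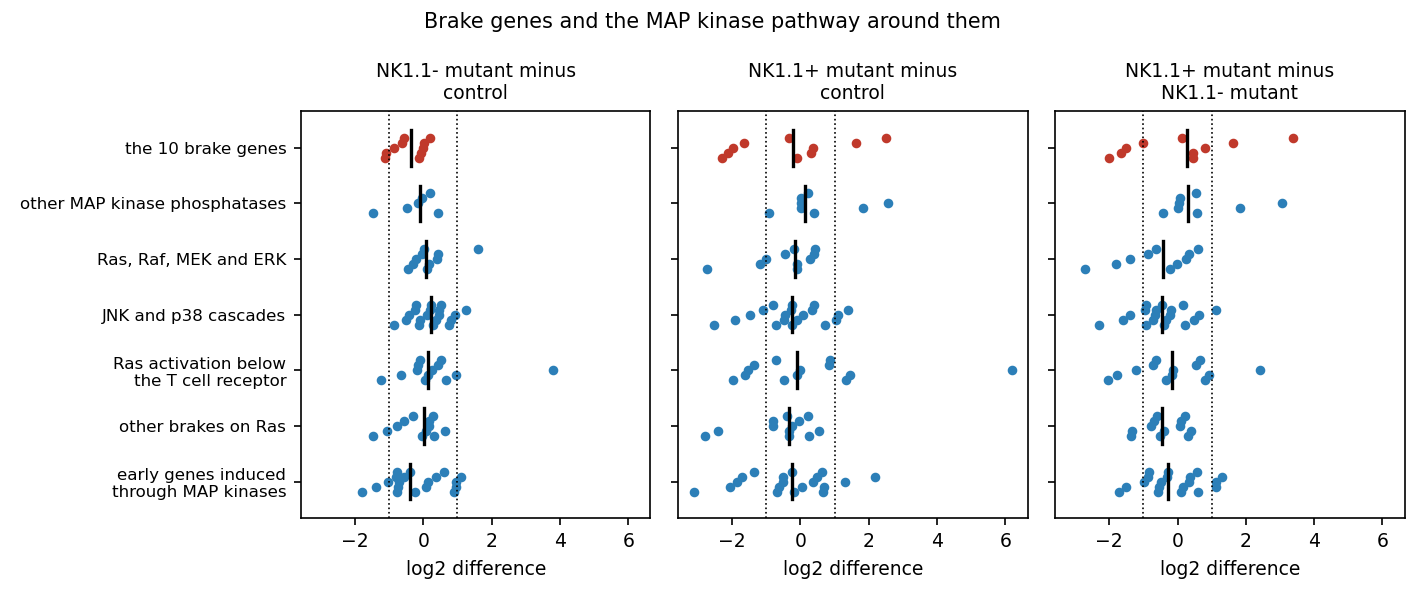
Log2 difference of the measured genes of the brake list (red) and of 6 lists of the MAP kinase pathway (blue) in the 3 comparisons, with the median of each list as a black bar and 2-fold as dotted lines. Medians of the brakes were -0.35, -0.22 and 0.29 from the left panel to the right, and the point farthest right is Gab2 at 6.19 in NK1.1+ mutant against control.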

How the data were processed

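RNA of 3 groups was measured on 1 Affymetrix array each, and groups were taken from sample titles. The deposited values are intensity values on a linear scale. GCRMA 1.1.3, which models background from probe sequence and summarises probe sets, is named per the submitters' processing notes, with settings not given in the sources used here. All value columns belonged to a sample. Of 45101 probe sets, 64 were controls, 34945 had 1 symbol in GEO's platform annotation, 932 several and 9160 none. Each gene was represented by the brightest (highest mean) of its probe sets with 1 symbol. Values under the level of 9.59 (3.26 in log2 units), set at the 95th percentile of 141 probe sets on all arrays for sensory receptors (olfactory, vomeronasal, taste), hair keratin-associated proteins and crystallins of the lens, were raised to it before log2 differences were taken. Where one side was at the level the difference is written as a lower bound. Calls were made at 1 on the log2 scale, with no p-value, since 1 array per group gives no spread, and precision is limited by the number of arrays. The calling rule was run on simulated data with less scatter than these probe sets and with large changes in bright genes only. That run does not test calls of genes near the level. Members and lists (7 pathway lists, 99 of 108 genes on the array, and 6 marker lists, 48 of 55) were chosen with earlier results of these data known. Named were all members, and per pathway list up to 4 genes with the largest differences per comparison. Outside this rule, Mapk14 and Mapk9 were named as kinase genes that were not called. Promoter windows were the first listed RefSeq window of each gene, Dusp4 not among them. The alternatives were 2 other levels, no level, an offset of 32, the mean of probe sets, probe sets without a suffix, quantile normalization and a common median. Python 3.11.15, numpy 2.4.6, pandas 2.3.3 and matplotlib 3.10.9 were used.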

Additional observations from a re-analysis of the deposited data

Results flagged for a closer look

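Spry2 was singled out because the 2 mutant fractions stood on opposite sides of control. The log2 difference was 2.52 for NK1.1+ mutant against control. For NK1.1- mutant against control it was -0.87, short of a call. The comparisons share the control array, and the difference between them was not tested, since each group had 1 array.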

How the results depend on the processing

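Of 232 values of the 10 brake genes under 8 alternatives, 211 kept their side of the 2-fold line. Differences with both arrays under the level were not counted among the 232. With the level at the 75th percentile these were Dusp4 and Spry1 in every comparison. They also included Dusp5 in NK1.1- mutant against control and Dusp10 between the mutant fractions. Spred2 changed sign with the mean of all probe sets, to 0.32 for NK1.1+ mutant against control and 0.29 for NK1.1+ mutant against NK1.1- mutant. Among differences under 2-fold, that of Dusp2 in NK1.1+ mutant against control (-0.11) changed sign with quantile normalization (0.17) and a common median (0.16), and that of Spred2 in NK1.1- mutant against control (-0.14) with the mean of probe sets (0.04). Counts in this paragraph are given as brakes, pathway genes and all genes. With the background level raised to the 75th percentile over all values, NK1.1- mutant against control had 1 brake lower (2 in the main setting), 1 pathway gene higher (4), and 494 genes higher and 312 lower (810 and 559). NK1.1+ mutant against control then had 1 brake higher and 1 lower (2 and 4), and 562 genes higher and 1496 lower (1049 and 2432). NK1.1+ mutant against NK1.1- mutant had 1 brake higher and 1 lower (2 and 4), 7 pathway genes lower (13), and 326 genes higher and 1305 lower (695 and 2263). An offset of 32 gave, in the first comparison, 0 brakes lower, 1 pathway gene higher and 3 lower (4 and 7), and 473 genes higher and 238 lower. In the second it gave 1 brake higher and 2 lower, and 585 genes higher and 1485 lower. In the third it gave 1 brake higher and 1 lower, 4 pathway genes higher and 8 lower (7 and 13), and 361 genes higher and 1202 lower. With the mean of all probe sets, NK1.1- mutant against control had 1 brake lower, 1 pathway gene higher, and 535 genes higher and 356 lower. NK1.1+ mutant against control had 5 pathway genes higher (10) and 555 genes higher, and NK1.1+ mutant against NK1.1- mutant had 2 brakes lower, 4 pathway genes higher and 329 genes higher. Probe sets without a suffix left 2 pathway genes higher in NK1.1- mutant against control. A common median moved the split of all calls to 1490 higher and 1839 lower for NK1.1+ mutant against control, and to 1103 higher and 1562 lower between the mutant fractions. A level from the NK1.1+ mutant array alone (14.5), chosen after seeing the data, moved no count of called brakes. Leaving out a replicate was not possible with 1 array per group. No paired analysis was possible because each group has 1 array. Values near the level, such as Dusp4 and Spry1 in NK1.1+ mutant cells, are limited by signal over background, and the cause of each lost call was not tested.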
